A study of Homo sapiens with 30 samples.

Results

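The genes described here are 8 that make, salvage or destroy deoxyribonucleoside triphosphates (dNTPs), the building blocks of DNA. They were chosen by name from the 39359 genes of the count table, with earlier results of these data known. They are the ribonucleotide reductase genes *RRM1*, *RRM2* and *RRM2B*, together with *TYMS*, *TK1*, *DUT*, *DCK* and *SAMHD1*. All 8 passed the filter on low counts, with between 780 and 15704 reads in each library, and were among the 21335 genes tested.

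The libraries come from H1299, a lung carcinoma cell line without p53, which was transiently transfected and sorted by FACS for GFP at 6 h or 24 h. Every vector expressed GFP from a TRE-tight promoter, so all groups share transfection, GFP and sorting. The control vector pGFP carried no p53. The other vectors carried wild type p53, the RW mutant of p53 with an altered codon 248, or p53 O6-meG, in which a methylated guanine sat in the template strand of that codon. Cells of the p53 O6-meG group could repair this lesion with the enzyme AGT. The p53 TM group (TM for transcriptional mutagenesis) received the same lesion vector together with 10 µM O6-bzG, an inhibitor of AGT. No other group received O6-bzG, so an effect of the compound and an effect of the unrepaired lesion cannot be told apart in p53 TM. The labels give 3 biological replicates for each of the 10 groups, in a single cell line, with p53 driven by an artificial promoter.

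Between 32302699 and 71950532 reads were counted on genes in each of the 30 libraries, with a median of 44424643. Of the epithelial markers, KRT8 (118.8 to 169.5 CPM, counts scaled to library size) and KRT18 were high in all libraries, whereas EPCAM was near 0 (0.0469 to 0.40 CPM). VIM, a mesenchymal rather than an epithelial marker, was high as well (2255 to 3382 CPM). Markers of leukocytes, endothelium and fibroblasts (DCN and LUM) reached 2.05 CPM at most. The p53 targets *CDKN1A* and *MDM2* rose with wild type p53 at both times and did not pass the test with RW mutant p53.

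The titles of 2 libraries at 6 h, both replicate 2, each name p53 O6-meG in one place and p53 TM in another. They were put in no group, so these groups hold 2 libraries at 6 h, and their values are given separately. *CDKN1A*, which codes for the cell cycle inhibitor p21, stood at 249.7 CPM in the library whose title begins with O6-meG and at 50.2 CPM in the one whose title begins with O6-meG and O6-bzG. In the undisputed libraries it was 268.8 and 260.7 CPM with p53 O6-meG and 65.9 and 57.9 CPM with p53 TM.

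The genes lie on 8 chromosomes. In hg38 with the GENCODE v44 annotation, *RRM2* spans 10120698 to 10211725 on the plus strand of chromosome 2, *RRM2B* spans 102204502 to 102238961 on the minus strand of chromosome 8, *RRM1* spans 4094707 to 4138932 on the plus strand of chromosome 11 and *TK1* spans 78174091 to 78187233 on the minus strand of chromosome 17. Values are counts over all annotated exons of a gene. Exons of *RRM2*, *RRM2B* and *TK1* overlap no other gene. *TYMS* shares 39.9% of its exon bases with *ENOSF1* on the opposite strand, and because no source says whether reads were counted by strand its reads cannot be fully told apart from that gene's.

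Ribonucleotide reductase removes the 2′ hydroxyl group from ribonucleoside diphosphates and is the committed step towards dNTPs. Its large subunit, RRM1, pairs with either of a pair of small subunits. RRM2 is the partner of dividing cells, made in S phase and degraded on exit from mitosis, while RRM2B (p53R2) is a direct target of p53 that supplies dNTPs for DNA repair and for mitochondrial DNA outside S phase. Thymidylate synthase (TYMS) makes dTMP from dUMP, and the dUTPase DUT provides that dUMP while keeping uracil out of DNA. Thymidine kinase 1 (TK1) and deoxycytidine kinase (DCK) salvage deoxynucleosides, and SAMHD1 hydrolyses dNTPs.

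RefSeq windows of the 250 bases before the transcription start (GRCh38.p14) were found for 7 of the 8 genes, *RRM2B* excepted. They were searched on both strands for CCAAT, the box bound by NF-Y in many cell cycle promoters. *RRM2* held 3 copies and *TK1* 2, and both windows are shown because these genes, high in S phase, were among those lower with wild type p53 at 24 h. Capitals mark the box, which reads ATTGG where it lies on the opposite strand. The first lies at chr2:10122489-10122738 (plus strand) and the second at chr17:78187053-78187302 (minus strand).
RRM2: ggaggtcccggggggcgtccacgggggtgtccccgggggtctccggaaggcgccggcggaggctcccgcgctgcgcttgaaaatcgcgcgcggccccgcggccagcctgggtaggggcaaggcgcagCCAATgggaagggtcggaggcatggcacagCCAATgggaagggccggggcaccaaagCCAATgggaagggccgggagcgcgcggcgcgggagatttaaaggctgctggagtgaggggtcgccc
TK1: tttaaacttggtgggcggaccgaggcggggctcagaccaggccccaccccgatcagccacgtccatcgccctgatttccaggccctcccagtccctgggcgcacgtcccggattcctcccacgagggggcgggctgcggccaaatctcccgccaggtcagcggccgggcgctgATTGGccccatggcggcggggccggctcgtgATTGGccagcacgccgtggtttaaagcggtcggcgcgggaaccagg
The boxes of *RRM2* began 123, 93 and 66 bases before the start, and those of *TK1* 77 and 46 bases before it. *SAMHD1* also held 2 and *RRM1* 1, while *TYMS*, *DUT* and *DCK* held 0. Of all 35116 windows of this length, 32.01% held at least 1. The windows were also searched on both strands for further motifs: TTTGGCG as the first E2F-type form, TTTCGCG as the second, TTTCCCG as the next and TTTGCCG as the last, then TTTGAA, known as CHR, and finally the TATA box form TATAAA. Of these, *TYMS* held TTTCCCG once (3.66% of all windows), *SAMHD1* held TTTCGCG once (1.1%), *RRM1* held TTTGAA once (13.32%) and *RRM2*, *TK1*, *DUT* and *DCK* held none. These matches are letters in a window, and binding was not measured.

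Control cells at 6 h served as the starting point. Per kilobase of the canonical transcript, *TYMS* (109.0 CPM per kb) and *TK1* (104.8) were the highest of the 8 in pGFP at 6 h, followed by *RRM2* (75.1), *DUT* (73.7) and *RRM1* (65.1). *RRM2B* (21.97), *SAMHD1* (19.0) and *DCK* (15.7) were the lowest, so by this length control cells held more mRNA of the S phase small subunit than of the p53-inducible one. *TYMS* and *TK1*, and likewise *RRM2* and *DUT*, differed by less than the spread of their libraries. By the length of all annotated exons, which are long for *RRM2*, the gap was smaller, at 26.7 against 19.5 CPM per kb.

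In pGFP cells the S phase subunit fell with time while the p53-inducible one did not pass the test. *RRM2* stood at 254.0, 236.6 and 242.9 CPM at 6 h and at 148.0, 193.7 and 174.4 CPM at 24 h. All libraries of the later time lay below all of the earlier one, with a log2 fold change of -0.51 (SE 0.13, adjusted *P* = 0.00255 by edgeR's quasi-likelihood test, which applies to all adjusted values here unless another is named). *DUT* fell by 0.50 on the log2 scale (SE 0.10, adjusted *P* = 2.7e-04) and *DCK* by 0.35 (SE 0.10, adjusted *P* = 0.00608). *RRM2B* (-0.16), *RRM1* (-0.16), *TYMS* (-0.03), *TK1* (0.14) and *SAMHD1* (0.11) did not pass. Thus 3 of 8 fell and 0 rose, where 22.3% of all genes tested fell and 19% rose. Of 20 S phase genes (replication licensing and fork genes, cyclin E and E2F1) all 20 fell, with a median of -0.60 against 0.0032 over all genes tested. The fall was not limited to S phase genes. Of 43 other genes of nucleotide metabolism, described below, 25 fell and 0 rose, with a median of -0.34. Among them 4 of 5 pyrimidine synthesis genes fell, with a median of -0.91, and 8 of 11 purine synthesis genes, with a median of -0.58. In bulk libraries fewer cells in S phase and less RNA per cell cannot be told apart.

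Wild type p53 at 6 h asked which of these genes respond first. *RRM2B* rose, and so did the thymidylate synthase gene *TYMS* and the large subunit *RRM1*, while *RRM2* did not. *RRM2B* was 105.4, 102.6 and 106.6 CPM with pGFP and 191.7, 187.9 and 172.2 CPM with wild type p53. The groups were far apart, with a log2 fold change of 0.81 (SE 0.13, adjusted *P* = 7.68e-05), or 1.75-fold. *RRM2* was 268.5, 245.0 and 213.5 CPM with wild type p53, around the pGFP values, and its difference was -0.01 (SE 0.13, adjusted *P* = 0.985).

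*TYMS* was 170.5, 173.1 and 183.8 CPM with pGFP and 253.2, 237.1 and 215.9 CPM with wild type p53 at 6 h, with no overlap (log2 fold change 0.42, SE 0.11, adjusted *P* = 0.00857). *RRM1* rose less, from 204.5 ± 10.9 to 241.0 ± 9.1 CPM (SD, n = 3; log2 fold change 0.24, SE 0.07, adjusted *P* = 0.0397). *TK1* (0.07), *DUT* (-0.03), *DCK* (-0.11) and *SAMHD1* (0.16) did not pass. These 3 of 8 raised and 0 lowered compare with 8.68% of all genes tested raised and 1.59% lowered. The call for *TYMS* was lost without wild type replicate 1 (adjusted *P* = 0.0561), and that for *RRM1* was lost when any library other than pGFP replicate 1 was left out and by DESeq2 (adjusted *P* = 0.115).

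**Figure D1:**
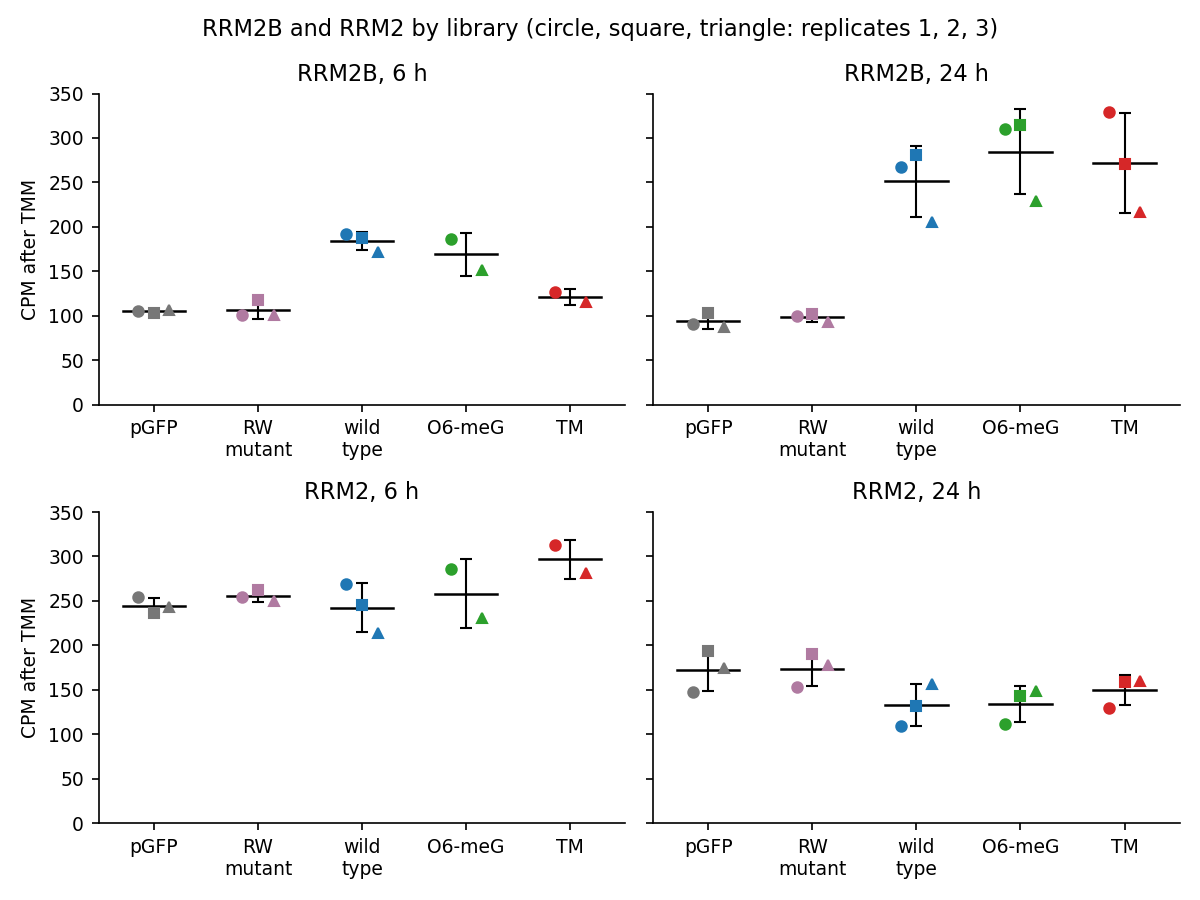
Levels of RRM2B (upper panels) and RRM2 (lower panels) in CPM after TMM normalization at 6 h (left) and 24 h (right). Each point is a library, shaped by replicate number, and lines with bars are the mean and SD of 3 libraries (2 for O6-meG and TM at 6 h). RRM2B in wild type p53 at 24 h ranged from 205.3 to 280.7 CPM against 87.8 to 103.0 CPM in pGFP, while RRM2 ranged from 109.4 to 156.8 against 148.0 to 193.7 CPM.

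By 24 h the same vector had moved 6 of the 8 genes, in both directions. *RRM2B* was 90.2, 103.0 and 87.8 CPM with pGFP and 267.3, 280.7 and 205.3 CPM with wild type p53, and every p53 library lay far above every pGFP library. Its log2 fold change was 1.42 (SE 0.13, 95% interval 1.15 to 1.70, adjusted *P* = 4.89e-09), or 2.68-fold. It was the only member to reach a 2-fold change, a limit that 9.22% of all genes tested passed upwards with the adjusted *P* and 1.99% downwards. The rise kept its call under every alternative and every library left out, at both times.

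*RRM2*, the other small subunit, fell at 24 h. It was 148.0, 193.7 and 174.4 CPM with pGFP and 109.4, 131.6 and 156.8 CPM with wild type p53. These ranges overlap, and the log2 fold change was -0.38 (SE 0.13, adjusted *P* = 0.0242). The call was lost without wild type replicate 1 (adjusted *P* = 0.101), wild type replicate 2 (0.0596), pGFP replicate 2 (0.138) or pGFP replicate 3 (0.0581). With the replicate number as a block, since libraries of the same number varied together at 24 h, *RRM2* was -0.38 (SE 0.06, adjusted *P* = 1.65e-05), and it was lower than pGFP in each of the 3 pairs (0.739, 0.679 and 0.899 of the pGFP level).

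Both salvage kinases fell too. *TK1*, the thymidine kinase of S phase, was 158.1, 169.7 and 167.3 CPM with pGFP and 111.0, 140.2 and 135.4 CPM with wild type p53 (log2 fold change -0.36, SE 0.09, adjusted *P* = 0.00203). *DCK*, which phosphorylates deoxycytidine, was 30.3, 33.8 and 28.8 CPM with pGFP and 22.4, 22.8 and 25.1 CPM with wild type p53 (-0.40, SE 0.10, adjusted *P* = 0.00218). For neither gene did the groups overlap, and neither call was lost with any library left out or under another setting. *MOB1B*, named after its values were seen because its exons overlap 6.41% of those of *DCK* on the same strand, rose by 0.86 (SE 0.18, adjusted *P* = 4.84e-04), against the direction of *DCK*.

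*RRM1* and *TYMS* stayed above pGFP. *RRM1* was 179.1, 191.5 and 179.4 CPM with pGFP and 220.2, 229.8 and 194.3 CPM with wild type p53 (log2 fold change 0.23, SE 0.07, adjusted *P* = 0.0182). *TYMS* was 152.2, 196.0 and 168.2 CPM with pGFP and 199.7, 213.7 and 249.1 CPM with wild type p53 (0.36, SE 0.11, adjusted *P* = 0.00983). In both genes all wild type libraries lay above all pGFP libraries, although for *TYMS* 199.7 CPM was close to the highest pGFP value. Its opposite-strand neighbour *ENOSF1*, named after its values were seen, moved the other way, with a log2 fold change of -0.28 (SE 0.08, adjusted *P* = 0.0063). *TYMSOS*, which overlaps 7.97% of the *TYMS* exon bases, held a mean of only 3.81 CPM with pGFP at 24 h. It rose by 0.79 (SE 0.15, adjusted *P* = 1.72e-04), in the direction of *TYMS*. The call for *TYMS* itself was lost without pGFP replicate 1 (adjusted *P* = 0.0724) or wild type replicate 3 (0.0785). That for *RRM1* was lost without either of pGFP replicates 1 and 3 or wild type replicates 1 and 2.

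*DUT* and *SAMHD1* changed least. *DUT* was 105.0, 123.4 and 105.8 CPM with pGFP and 88.4, 98.4 and 104.0 CPM with wild type p53 (-0.20, SE 0.10, adjusted *P* = 0.128), and *SAMHD1* was 97.3, 93.4 and 94.3 against 112.4, 104.9 and 96.2 CPM (0.14, SE 0.06, adjusted *P* = 0.102). With the replicate number as a block both passed, *DUT* lowered (adjusted *P* = 0.0174) and *SAMHD1* raised (adjusted *P* = 0.0237). Without the block 3 of 8 members rose and 3 fell, where 20.5% of all genes tested rose and 14.5% fell.

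**Figure D2:**
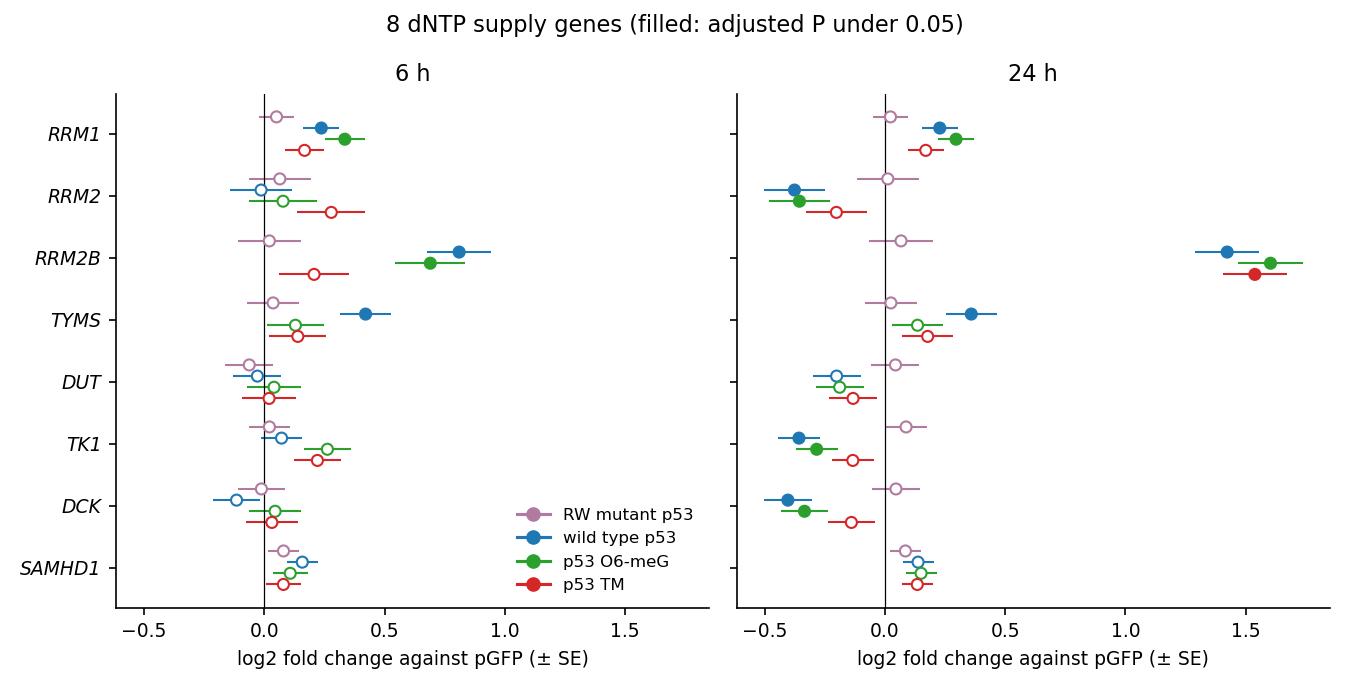
Log2 fold change against pGFP with its SE for the 8 genes at 6 h (left) and 24 h (right), one colour per p53 vector. Filled points have an adjusted P under 0.05. RRM2B lies far to the right at 24 h for wild type p53 (1.42), p53 O6-meG (1.60) and p53 TM (1.54), while RRM2, TK1 and DCK lie left of 0 for wild type p53 and p53 O6-meG, and all points of RW mutant p53 are unfilled.

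The design also asks whether the response to wild type p53 changed between the times. For *RRM2B* the log2 fold change over pGFP was larger at 24 h by 0.61 (SE 0.19, adjusted *P* = 0.0467), and for *TK1* it was lower by 0.43 on the same scale (SE 0.12, adjusted *P* = 0.0352), from 0.07 at 6 h to -0.36 at 24 h. The change for *RRM2* was -0.36 (SE 0.18, adjusted *P* = 0.288) and for *DCK* -0.29 (SE 0.14, adjusted *P* = 0.265). Thus 1 of 8 members was called upwards and 1 downwards, where 3.73% and 2.77% of all genes tested were. Both calls lie close to the threshold: each of the 12 libraries left out in turn took away that of *RRM2B*, except pGFP replicate 2 and wild type replicate 3 of 24 h, and 7 of the 12 took away that of *TK1*.

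RW mutant p53 moved 0 of the 8 genes at either time by edgeR, with 0 at an unadjusted *P* under 0.05 and 0 by DESeq2. Its log2 fold changes against pGFP lay between -0.06 (*DUT*) and 0.08 (*SAMHD1*) at 6 h and between 0.01 (*RRM2*) and 0.09 (*TK1*) at 24 h, each with an adjusted *P* of 1. *RRM2B* was 99.6, 102.1 and 92.7 CPM at 24 h, within 0.07 of pGFP on the log2 scale (SE 0.13, 95% interval -0.20 to 0.34), an interval that lies below the rise with wild type p53. At both times 0.00469% of all genes tested rose and 0% fell with this vector.

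With the O6-meG vector in cells with active AGT, *RRM2B* rose over pGFP at both times. At 6 h *RRM2B* was 186.4 and 152.0 CPM (log2 fold change 0.69 over pGFP, SE 0.14, adjusted *P* = 0.00327) and *RRM1* was 261.9 and 253.9 CPM (0.34, SE 0.08, adjusted *P* = 0.0141). Only these 2 of 8 passed, where 4.32% of all genes tested rose and 0.53% fell. The library in dispute whose title begins with O6-meG held 187.9 CPM of *RRM2B*. With both disputed libraries grouped by how their titles begin, the *RRM2B* value was 0.74 (adjusted *P* = 2.11e-04), and grouped by the genotype field it was 0.55 (adjusted *P* = 0.132). Without replicate 1 of p53 O6-meG the call was lost as well (adjusted *P* = 0.0974).

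At 24 h *RRM2B* was 309.7, 314.1 and 229.5 CPM with p53 O6-meG, 1.60 above pGFP on the log2 scale (SE 0.13, adjusted *P* = 9.76e-10). *RRM1* rose (0.30, adjusted *P* = 0.00326), and *RRM2* (-0.36, adjusted *P* = 0.0384), *TK1* (-0.28, adjusted *P* = 0.0147) and *DCK* (-0.33, adjusted *P* = 0.0118) fell, while *TYMS* did not pass (0.14, SE 0.11, adjusted *P* = 0.382). So 2 of 8 rose and 3 fell, where 18.1% of all genes tested rose and 11.3% fell. With the replicate block *DUT* (-0.19, adjusted *P* = 0.0291) and *SAMHD1* (0.15, adjusted *P* = 0.0143) passed too. All 3 lowered calls were lost without p53 O6-meG replicate 1 or without pGFP replicate 2.

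Set directly against wild type p53, p53 O6-meG differed in 0 of the 8 genes at either time by edgeR and by DESeq2, with 1 at an unadjusted *P* under 0.05 at each time (*TYMS*), where 0% of all genes tested rose at both times and 0% at 6 h and 0.00937% at 24 h fell. The difference in *RRM2B* was -0.12 at 6 h (95% interval -0.42 to 0.18) and 0.18 at 24 h (-0.09 to 0.45), and that in *TYMS* was -0.29 at 6 h (SE 0.12, adjusted *P* = 0.439) and -0.22 at 24 h (SE 0.11, adjusted *P* = 0.992).

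The comparison of p53 TM with wild type p53 covers the lesion vector and O6-bzG together. An effect of the unrepaired lesion alone was not tested. At 6 h most of the *RRM2B* response was missing. *RRM2B* was 127.3 and 114.9 CPM, both above the highest pGFP library (106.6) and both below the lowest wild type library (172.2). Its log2 fold change was -0.60 against wild type p53 (SE 0.15, adjusted *P* = 0.0073) and 0.21 against pGFP (SE 0.15, adjusted *P* = 0.968). Its rise over pGFP was 28.3% and 12.7% of that of wild type p53 in the single libraries, with a mean of 20.5%. By the same measure the mean was 10.2% for *CDKN1A* and 11.3% for *MDM2*. Against pGFP 0 of the 8 passed by edgeR or DESeq2 (1 at an unadjusted *P* under 0.05, *TK1*), where 0.192% of all genes tested rose and 0.00937% fell. The disputed library whose title begins with O6-meG and O6-bzG held 123.3 CPM, within this group's range.

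*RRM2B* was the only member that differed from wild type p53 at 6 h, 1 of 8 lowered and 0 raised, where 8.14% of all genes tested were lowered and 2.77% raised. The value was -0.59 (adjusted *P* = 0.00135) with the disputed libraries grouped by how their titles begin and -0.36 (adjusted *P* = 0.283) when grouped by the genotype field, and the call was lost without p53 TM replicate 3 (-0.53, adjusted *P* = 0.109). Against p53 O6-meG the difference was -0.48 (SE 0.16, adjusted *P* = 0.104), and 0 of 8 passed, where 0.731% of all genes tested rose and 3.37% fell. *TYMS* was 181.2 and 206.0 CPM in p53 TM (-0.28 against wild type p53, SE 0.12, adjusted *P* = 0.158). *RRM2* was 312.4 and 280.8 CPM, above all pGFP and wild type libraries, with 0.29 against wild type p53 (SE 0.14, adjusted *P* = 0.235).

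At 24 h the *RRM2B* libraries of p53 TM overlapped those of wild type p53. They held 328.7, 270.8 and 216.6 CPM, with a log2 fold change of 1.54 over pGFP (SE 0.13, adjusted *P* = 7.53e-09) and of 0.11 over wild type p53 (SE 0.13, 95% interval -0.15 to 0.38, adjusted *P* = 0.603). The mean rise was 113.3% of that of wild type p53, and 149.3%, 112.5% and 78.1% in the single libraries. *CDKN1A* stood at 55% of its wild type rise in the same libraries and was lower than with wild type p53 (-0.77, SE 0.15, adjusted *P* = 7.36e-04), while *MDM2* stood at 89.2% (-0.15, adjusted *P* = 0.543).

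The members that wild type p53 lowered had means between those of both groups in p53 TM at 24 h. *RRM2* was 130.1, 159.1 and 159.5 CPM, between the means of wild type p53 (132.6) and pGFP (172.0), with -0.20 against pGFP (SE 0.13, adjusted *P* = 0.417) and 0.17 against wild type p53 (SE 0.13, adjusted *P* = 0.383). *TK1* was 142.8, 157.7 and 151.0 CPM, and *DCK* was 27.5, 28.2 and 28.8 CPM. For both, every p53 TM library lay above every wild type library. All lay below the pGFP libraries too, but the nearest almost met them (157.7 against 158.1 CPM for *TK1*, 28.80 against 28.83 for *DCK*). Neither gene passed against pGFP (*TK1* -0.13, adjusted *P* = 0.434, and *DCK* -0.14, adjusted *P* = 0.484). Their differences from wild type p53 were 0.22 (SE 0.09, adjusted *P* = 0.07) and 0.26 (SE 0.10, adjusted *P* = 0.0597).

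*RRM2B* was thus the only member that passed against pGFP at 24 h in p53 TM, 1 of 8, where 9% of all genes tested rose and 1.68% fell, and 0 of 8 passed against wild type p53 by edgeR or DESeq2 (2 at an unadjusted *P* under 0.05, *TK1* and *DCK*), where 9.29% rose and 11.9% fell. Against p53 O6-meG at 24 h 0 of 8 passed by edgeR or DESeq2, and 0 at an unadjusted *P* under 0.05, where 3.47% rose and 6.58% fell, although *TK1* passed with the replicate block (0.15, adjusted *P* = 0.0445). With the replicate block *RRM2* (adjusted *P* = 0.0281), *TK1* (0.0017) and *DCK* (0.0142) were all higher in p53 TM than with the wild type vector. Under the block *RRM2* was also below pGFP (adjusted *P* = 0.0229), and *RRM1* (0.17, adjusted *P* = 0.0166) and *SAMHD1* (0.13, adjusted *P* = 0.0498) above it.

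Whether the gap between p53 TM and wild type p53 in *RRM2B* closed between the times was tested after these values had been seen. The gap changed by 0.72 on the log2 scale (SE 0.20, adjusted *P* = 0.0675), which did not pass. By edgeR and by DESeq2 0 of 8 passed, and only *RRM2B* (1 of 8) had an unadjusted *P* under 0.05, where 1.27% of all genes tested passed upwards and 0.178% downwards. With the block it passed (adjusted *P* = 5.54e-04), although the replicate numbers were not shown to pair the libraries of 6 h. The same change, without the block, was 1.27 for *CDKN1A* (adjusted *P* = 0.00244) and 1.88 for *MDM2* (adjusted *P* = 2.13e-05).

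The p53-inducible and the S phase small subunit can be set against each other within a library, where depth and scaling cancel. The ratio of *RRM2B* to *RRM2* reads was 0.415, 0.434 and 0.439 with pGFP at 6 h and 0.714, 0.767 and 0.807 with wild type p53. At 24 h it was 0.61, 0.532 and 0.504 with pGFP and 2.44, 2.13 and 1.31 with wild type p53, so the gene with fewer reads in every control library had more in every wild type library. The wild type mean was 1.77-fold the pGFP mean at 6 h and 3.47-fold at 24 h.

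With p53 O6-meG at 24 h the ratio was 2.78, 2.19 and 1.55, and with p53 TM it was 2.53, 1.70 and 1.36, all above 1. At 6 h p53 TM stood at 0.407 and 0.409, just below all pGFP libraries, while p53 O6-meG stood at 0.653 and 0.659. RW mutant p53 overlapped pGFP at both times (0.396 to 0.448 at 6 h and 0.521 to 0.652 at 24 h). Each exact permutation test of 3 against 3 libraries without overlap gave *P* = 0.1, the smallest it can give (two-sided; 0.133 after Benjamini-Hochberg adjustment over 4 vectors at 24 h), so this test could not reach 0.05 with 3 libraries in each group. Replicate 3 had the lowest ratio in all 5 groups at 24 h and replicate 1 the highest.

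**Figure D3:**
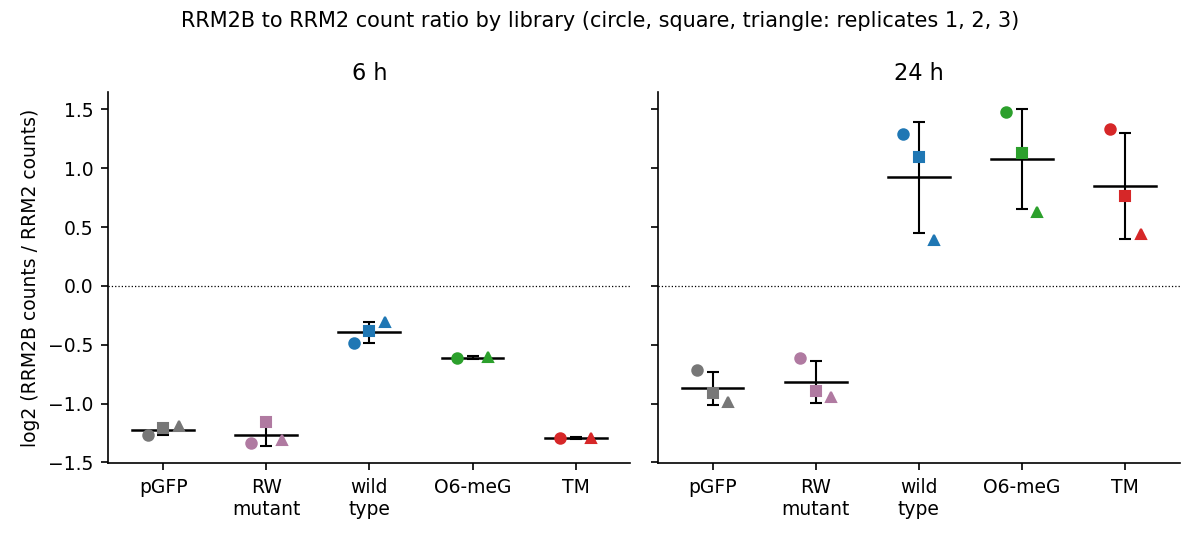
Log2 ratio of RRM2B to RRM2 reads in each library at 6 h (left) and 24 h (right), with points shaped by replicate number and the mean and SD of each group (2 libraries for O6-meG and TM at 6 h, otherwise 3). All 3 libraries of wild type p53, p53 O6-meG and p53 TM lie above 0 (equal reads) at 24 h, and all libraries of pGFP and RW mutant p53 lie below it.

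Per kilobase the crossing depends on the length used. With canonical transcripts, *RRM2B* was 19.6 and *RRM2* 52.8 CPM per kb with pGFP at 24 h, and 52.6 and 40.7 CPM per kb with wild type p53. With all annotated exons the pGFP levels were 17.4 and 18.8 CPM per kb and those of wild type p53 were 46.6 and 14.5. The S phase subunit was thus the higher in control cells and the p53-inducible one the higher with wild type p53 by both lengths, but by the second the control levels were nearly equal.

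Other genes of nucleotide metabolism were taken from a list of 45, of which 43 could be tested. At 24 h with wild type p53, 12 rose and 2 fell, where 20.5% of all genes tested rose and 14.5% fell. The median was 0.12 against 0.0081 over all genes tested. By role, 2 of 11 purine synthesis genes rose, with IMPDH1, the first step towards GMP, at 0.63 (SE 0.08, adjusted *P* = 2.23e-07). In pyrimidine synthesis 2 of 5 rose, led by the mitochondrial enzyme DHODH at 0.86 (SE 0.10, adjusted *P* = 1.58e-07). Of the nucleotide kinases 3 of 8 rose, led by the UMP/CMP kinase CMPK1 at 1.00 (SE 0.14, adjusted *P* = 2.59e-06). The other 2 kinases raised were *NME1* and *NME2*, near-identical neighbours whose reads may be shared.

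Genes that remove or clean nucleotides rose in 4 of 10 cases, led by the purine nucleoside phosphorylase PNP at 0.96 (SE 0.08, adjusted *P* = 1.72e-09). Among 4 transporters 1 rose and 1 fell, and the largest change was that of the nucleoside importer SLC29A1 at 1.07 (SE 0.10, adjusted *P* = 5.93e-09). Of 5 genes of folate and dUMP supply 0 rose and 1 fell, the serine hydroxymethyltransferase SHMT1 at -0.39 (SE 0.10, adjusted *P* = 0.00305). The share of the list raised, 12 of 43, stands beside the 20.5% of all genes tested.

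In p53 TM at 24 h, 12 of the 43 were lowered against wild type p53 and 0 raised, where 11.9% of all genes tested were lowered and 9.29% raised. The count was 4 lowered with only the groups compared, 18 lowered and 2 raised with the replicate block, and 9 lowered and 2 raised without p53 TM replicate 1. Over all genes, 2539 were lowered in the main fit, 1139 with only the groups compared and 4308 with the block. Genes raised went from 1981 in the main fit to 3580 with the block. For the fit without p53 TM replicate 1 the counts over all genes are not given. Some genes were named above for their rise with wild type p53, from the same wild type libraries. Of these, IMPDH1 (-0.58), DHODH (-0.71), CMPK1 (-0.47), PNP (-0.66) and SLC29A1 (-0.59) each passed (adjusted *P* = 7.35e-06 for IMPDH1, 6.09e-06 for PNP and 0.0164 for CMPK1), whereas *RRM2B* was at 0.11. The difference between *RRM2B* and these genes was itself not tested.

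The S phase list moved in the direction of *RRM2*, *TK1* and *DCK* at 24 h, and against that of *RRM1* (0.23) and *TYMS* (0.36). With wild type p53 at 24 h, 16 of 20 fell and 0 rose, with a median of -0.49, where 14.5% of all genes tested fell and 20.5% rose. At 6 h only CCNE2, cyclin E2, fell (-0.44, adjusted *P* = 0.0043), where 1.59% of all genes tested fell. CCNE2 (-1.55), CDC6 (-0.89) and E2F1 (-0.80), chosen after their values were seen, fell most at 24 h. In p53 TM at 24 h, 7 of 20 were below pGFP, where 1.68% of all genes tested fell, and 4 above wild type p53, where 9.29% rose. The first count was 15 by DESeq2, 15 with its size factors, 15 with at least 10 counts in every library, 11 with the disputed libraries grouped by how their titles begin and 18 with the replicate block. It was 2 without p53 TM replicate 1, 4 without pGFP replicate 2 or 3, and 11 without p53 TM replicate 3. Over all genes, 359 fell in the main fit, 770 by DESeq2, 620 with its size factors and 458 with at least 10 counts. By title 419 fell, and with the block 1417. The second count was 1 with only the groups compared, 10 with the block (1 lowered), 1 without wild type replicate 1, 2 without p53 TM replicate 2 or 3, and 8 without wild type replicate 3. Over all genes, 1981 rose in the main fit, 629 with only the groups compared and 3580 with the block. For the fits that left out 1 library, counts over all genes are not given. The shifts of both counts in those fits cannot be told apart from shifts over all genes. Since *RRM2* and *TK1* are themselves S phase genes, the part of fewer cycling cells in their fall was not tested. In pGFP between the times *TK1* did not follow the list (0.14, adjusted *P* = 0.211), of which all 20 fell.

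**Figure D4:**
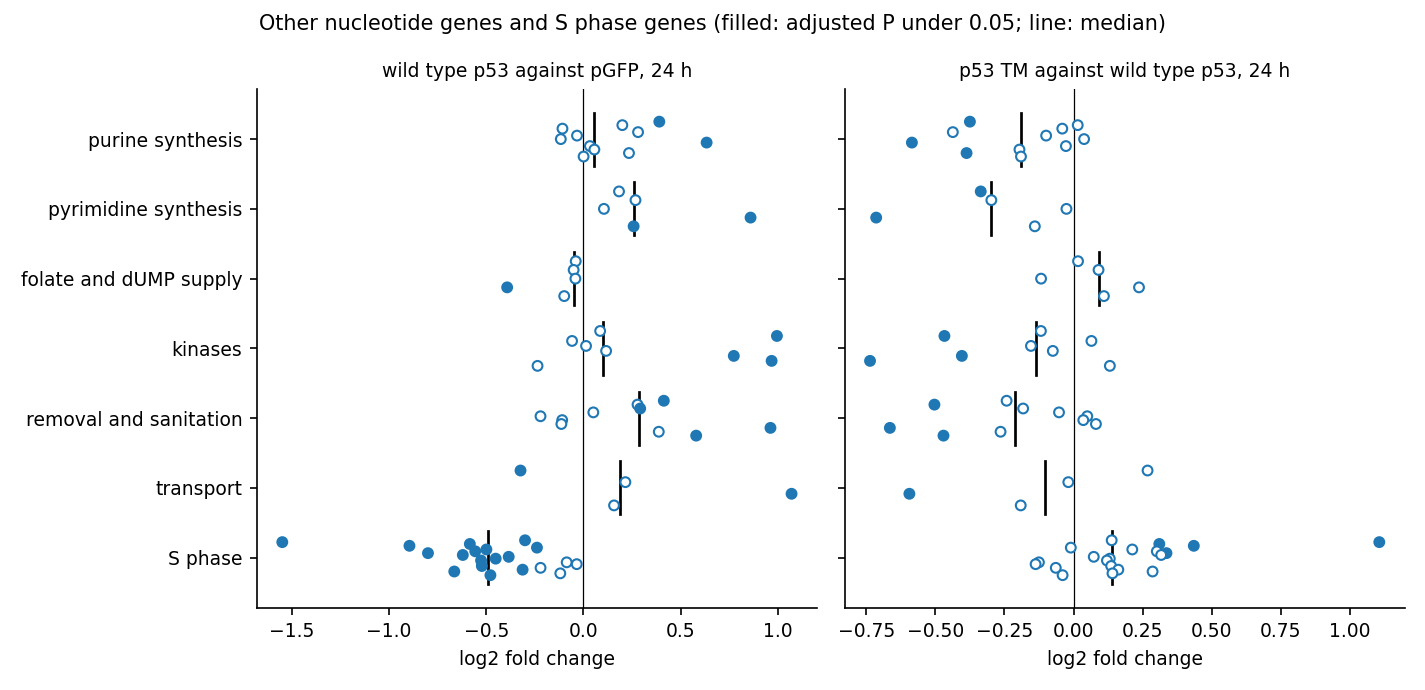
Log2 fold change of 43 other nucleotide genes by role and of 20 S phase genes, for wild type p53 against pGFP (left) and p53 TM against wild type p53 (right) at 24 h. Each point is a gene, filled where the adjusted P is under 0.05, and vertical lines are medians. The S phase median lies at -0.49 on the left and at 0.14 on the right, and all 12 filled points of the nucleotide genes on the right lie below 0.

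Among the genes tested, those whose log2 CPM followed *RRM2B* most closely over the 28 grouped libraries were BBS4 (Pearson's r = 0.982), HSDL2 (0.980) and EI24 (0.979). BBS4 went from 24.97 ± 0.28 CPM with pGFP to 57.0 ± 9.5 CPM with wild type p53 and 52.7 ± 6.4 CPM with p53 TM at 24 h (SD, n = 3), and stood at 26.97 ± 1.87 CPM with p53 TM at 6 h (SD, n = 2). Closest to *RRM2* were SUV39H2 (0.984), XXYLT1 (0.979) and CEBPG (0.979). SUV39H2 was 52.5 ± 2.8 CPM with pGFP at 6 h, 33.9 ± 4.1 CPM at 24 h and 25.4 ± 4.0 CPM with wild type p53 at 24 h (SD, n = 3). These correlations describe libraries that share vectors, times and replicate numbers, and they carry no test.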

How the data were processed

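Stranded total RNA libraries were sequenced as single reads. The authors aligned them with STAR v2.5.3a (hg38) and counted them on GENCODE v27 genes with featureCounts (Subread v1.5.2), and deposited raw read counts, which were used here without the authors' normalized values. Whether counting used strand is not given in the sources used here. The members and gene lists were chosen with earlier results of these data known. Named beside the members were *CDKN1A* and *MDM2*, the largest change of each role group with wild type p53 at 24 h, and the 3 genes most correlated with *RRM2B* and with *RRM2*.

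With R 4.3.3 and edgeR 4.0.16, 28 libraries of 10 groups were filtered by filterByExpr (21335 of 39359 genes kept), scaled by TMM and compared by the quasi-likelihood test, with Benjamini-Hochberg adjustment over all genes tested and a threshold of 0.05. The design follows the authors' model of vector and time, which they fitted in DESeq2 1.20. Comparisons against pGFP at one time share its libraries. Ratios of reads (with 0.5 added to each count) were compared by two-sided exact permutation tests. Coordinates are from GENCODE v44. Scripts were tested on simulated data.

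Libraries of the same replicate number deviated together at 24 h (correlation 0.182 to 0.613 in 30 of 30 pairs), and the replicate number was used as a block there as an alternative. No library duplicated another of its group (chi-square per degree of freedom 6.08 to 47.36 over 26 pairs). Other alternatives were DESeq2 1.42.0, its size factors in edgeR, other filters on low counts, only the groups compared, both placements of the disputed libraries, and each library left out. The labels call the replicates biological.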

Additional observations from a re-analysis of the deposited data

Results flagged for a closer look

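The response of *RRM2B* to wild type p53 differed between the times, with a log2 fold change over pGFP that was larger by 0.61 at 24 h than at 6 h, and that of *TK1* differed in the other direction, by -0.43 (edgeR's test of the interaction of vector and time, adjusted *P* = 0.0467 and 0.0352). Both lost their calls in most fits that left out 1 library.

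The 2 libraries with conflicting titles entered no comparison, and 7 of the 8 members, all but *DCK*, stood in both above all pGFP libraries of 6 h. The share of all genes tested that did so was not counted, so this cannot be read as a trait of the members. *SAMHD1* lay above those pGFP libraries with RW mutant p53 at 6 h too (92.8 to 93.8 CPM). In the library whose title begins with O6-meG, *RRM1* was 253.6, *RRM2* 267.1, *RRM2B* 187.9, *TYMS* 221.3, *TK1* 181.0, *DUT* 174.0 and *SAMHD1* 94.1 CPM. In the library whose title begins with O6-meG and O6-bzG, *RRM1* was 230.1, *RRM2* 294.1, *RRM2B* 123.3, *TYMS* 186.1, *TK1* 165.0, *DUT* 169.3, *SAMHD1* 95.2 and *DCK* 41.9 CPM. The highest pGFP libraries held 216.8 CPM of *RRM1*, 254.0 of *RRM2*, 106.6 of *RRM2B*, 183.8 of *TYMS*, 160.9 of *TK1*, 160.0 of *DUT*, 89.9 of *SAMHD1* and 41.1 of *DCK*. The ratios of *RRM2B* to *RRM2* reads were 0.704 in the first library and 0.419 in the second.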

How the results depend on the processing

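The rise of *RRM2B* with wild type p53 kept its call in all alternatives (0.77 to 0.85 at 6 h and 1.34 to 1.55 at 24 h, log2), as did the falls of *TK1* (-0.44 to -0.30) and *DCK* (-0.49 to -0.34) at 24 h. Other counts of members called moved, and the causes were not tested.

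The replicate block was the alternative that added most calls. With it p53 TM against pGFP had 2 members raised at 6 h, and 3 raised and 1 lowered at 24 h. Calls over all genes tested rose too, from 41 raised and 2 lowered to 206 and 122 at 6 h. At 24 h they rose from 1921 raised and 359 lowered to 3203 and 1417. Under the block p53 TM against wild type p53 had 2 raised and 2 lowered at 6 h and 3 raised at 24 h, and p53 TM against p53 O6-meG had 1 lowered at 6 h and 1 raised at 24 h. Against wild type p53 the block called 1468 of all genes raised and 3031 lowered at 6 h, and 3580 and 4308 at 24 h. Without it these were 592 and 1737, and 1981 and 2539. Against p53 O6-meG it called 813 raised and 1782 lowered at 6 h, and 2159 and 3232 at 24 h. Without it these were 156 and 718, and 740 and 1404. The block also gave 1 member raised for p53 O6-meG against wild type p53 at 6 h, 1 raised for pGFP between the times, 2 lowered for the change of the wild type response between the times and 1 raised for that of p53 TM against wild type p53. Over all genes, p53 O6-meG against wild type p53 at 6 h went from 0 called to 461 raised and 909 lowered. Genes raised for pGFP between the times went from 4048 to 5433. Those lowered for the wild type change went from 592 to 1843, and those raised for the p53 TM change from 272 to 1179. At 6 h the numbers were not shown to pair the libraries (5 of 9 correlations above 0.1).

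Testing every gene with at least 1 count left 1 member raised for p53 O6-meG at 6 h, for wild type p53 at 24 h and for p53 O6-meG at 24 h, left 0 for the change of the wild type response between the times, and gave 1 for that of p53 TM against wild type p53. Over all genes of that fit 815, 3687 and 3055 rose for these vectors, against 922, 4369 and 3872 in the main fit. For the changes between the times 495 and 307 rose, against 796 and 272. With the disputed libraries placed by the genotype field, 0 members were raised for p53 O6-meG at 6 h or for the change of the wild type response, and 0 lowered for p53 TM against wild type p53 at 6 h. Over all genes, 72 rose for p53 O6-meG at 6 h (922 in the main fit) and 529 for the wild type change (796). For p53 TM against wild type p53 at 6 h, 11 fell (1737 in the main fit). The log2 ratio of *RRM2B* to *RRM2* was then 0.40 above pGFP for p53 O6-meG and 0.19 for p53 TM. With the disputed libraries grouped by how their titles begin, 1 was lowered for p53 TM against p53 O6-meG at 6 h, and 1 raised for p53 TM against wild type p53 at 24 h and for its change between the times. Over all genes, 1326 fell in the first of these (718 in the main fit), and 2049 and 433 rose in the others (1981 and 272). For pGFP between the times, 2 were raised with at least 10 counts in every library, 2 with only the groups compared and 1 by DESeq2, and p53 TM against wild type p53 at 6 h had 1 raised with only the groups compared. Over all genes, 3477, 4542 and 4419 rose for pGFP in these settings (4048 in the main fit), and 1071 for p53 TM (592).

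With 1 library left out, members raised ranged from 1 to 3 for wild type p53 at 6 h and at 24 h, from 0 to 2 for p53 O6-meG at 6 h, and from 0 to 1 for p53 TM against wild type p53 at 24 h and for the change between the times of wild type p53 and of p53 TM against wild type p53. Members lowered ranged from 0 to 3 for p53 O6-meG at 24 h and from 0 to 1 for p53 TM against wild type p53 at 6 h and for the change of the wild type response. Counts over all genes are not given for these fits, so a shift in the members cannot be told apart from a shift over all genes.

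Differences that had not passed changed sign. With 1 library left out, *RRM2* ranged from -0.094 to 0.069 for wild type p53 at 6 h, from -0.080 to 0.23 for p53 O6-meG at 6 h, from -0.069 to 0.24 for p53 O6-meG against wild type p53 at 6 h and from -0.10 to 0.16 at 24 h, from -0.085 to 0.11 for RW mutant p53 at 24 h (-0.0013 with at least 10 counts in every library), and from -0.24 to 0.020 for the change between the times of p53 TM against wild type p53. *RRM2B* ranged from -0.057 to 0.059 for RW mutant p53 at 6 h, from -0.27 to 0.020 for p53 O6-meG against wild type p53 at 6 h, and at 24 h from -0.044 to 0.25 for p53 TM against wild type p53 and from -0.22 to 0.074 for p53 TM against p53 O6-meG. Each member had at least 780 reads in each library, and the groups hold 2 or 3 libraries each.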
